A study of Homo sapiens with 5 samples.

Results

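Genes of transport between the endoplasmic reticulum (ER) and the Golgi apparatus were measured by RNA sequencing in the line NK92MI, human natural killer cells that carry an introduced IL2 gene and so need no added interleukin 2. The cells had been cultured for 48 h with 10 µM UNC1999, an inhibitor of the histone H3 lysine 27 methyltransferases EZH2 and EZH1 (3 libraries), or with the solvent DMSO (2 libraries). Members were chosen by gene symbol, as rows named SEC with a number, COPI coat subunits (COPA to COPZ), TRAPPC subunits, GOLGA1 to GOLGA5, ARF1 to ARF6, ARFGAP1 to ARFGAP3 and ARFGEF1 or ARFGEF2, that had 10 or more counts in at least 2 of the 5 libraries. Of 57221 rows, 72 matched by name and 58 passed the count minimum; all 58 were tested. Whether the libraries are from separate cultures is not stated in the labels, and the spread that p-values rest on may therefore be technical.

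Proteins made for secretion enter the ER through the SEC61 channel and lose their signal peptide there. Vesicles with a COPII coat carry them towards the Golgi, and vesicles with a COPI coat carry escaped ER proteins and Golgi enzymes back. Tethers (TRAPP complexes and golgins) catch the vesicles, SNARE proteins such as SEC22B fuse them, and ARF GTPases, switched on by exchange factors and off by GTPase-activating proteins, recruit the COPI coat. Natural killer cells load their cytotoxic granules with proteins that travel this way. The symbol rule also takes genes outside ER to Golgi traffic proper: 8 of the 58 encode the translocation channel, its partners or signal peptidase, SEC14L1 encodes a lipid-binding protein, and ARF6 works mainly at the plasma membrane.

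All 10 markers fixed for the natural killer line had 10 or more counts in every library, and their summed level was 6480 to 7400 CPM (counts scaled to each library's total and composition) in UNC1999 and 7170 to 7320 CPM in DMSO. The sum hides single genes that differed in opposite directions. EOMES had 95.3, 108.3 and 103.2 CPM in UNC1999, against 174.1 and 167.6 CPM in DMSO. CD7 had 106.3, 69.6 and 91.9 CPM in UNC1999, against 52.0 and 47.9 CPM in DMSO. The T cell genes CD3D, CD3G, CD4 and CD8B, the B cell gene MS4A1 and the myeloid gene LYZ were at 0 in all 5 libraries. The summed level of the T cell list was 40.4 to 43.7 CPM in UNC1999 and 31.2 to 34 CPM in DMSO, nearly all of it from TRAT1. That of the B cell list was 17.3 to 24.6 CPM in UNC1999 and 23.8 to 25.6 CPM in DMSO, nearly all from PAX5, and that of the myeloid list 33.6 to 42.1 CPM in UNC1999 and 41.1 to 46.0 CPM in DMSO, mostly from ITGAM. The part of these genes in the results was not tested. Counts assigned to genes totalled 8644161 to 8718661 per UNC1999 library and 8442908 and 8748106 in DMSO. UNC1999 replicate 2 stood apart, with a chi-square per degree of freedom of 8.09 and 9.49 against the other UNC1999 libraries, which differed by 1.87 from each other; the DMSO libraries differed by 3.29.

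Members were called in both directions under UNC1999, each by less than 2-fold. Relative to DMSO, 13 of the 58 rose, 14 fell and 31 did not pass the test (edgeR quasi-likelihood test, Benjamini-Hochberg adjusted p below 0.05 over 13075 genes). These are 22.4% higher and 24.1% lower, where 15.7% of all tested genes were higher and 19.5% lower. The median log2 fold change was 0.05 over the members and -0.01 over all tested genes. The values ran from -0.81 for SEC14L1 to 0.94 for GOLGA4, and 0 members reached a 2-fold change. In all 27 called members the groups did not overlap, and UNC1999 replicate 2 was the library nearest to DMSO in 14 of them. Neither count is given for all called genes, so neither sets the members apart from other genes. Without normalization factors, which put the median of all genes at 0.09, the split was 19 higher and 9 lower. Over all genes it was 2951 higher and 1738 lower in that fit. Without UNC1999 replicate 2, 18 members were higher and 18 lower, and the 27 calls made with all libraries were all among these. Calls rose over all genes as well, to 2862 higher and 3030 lower of 12880 in that fit. Without DMSO replicate 1, 6 were higher and 9 lower. Without DMSO replicate 2, 9 were higher and 9 lower. Over all genes, too, there were fewer calls on leaving out a DMSO library: 1159 higher and 1368 lower without replicate 1 and 1311 higher and 1669 lower without replicate 2, against 2057 higher and 2546 lower with all libraries. In these fits the spread of the single DMSO library is assumed to be that of the other libraries. In this bulk RNA, a change in the share of cells that express a gene and a change in RNA per cell cannot be told apart.

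Fold changes across this data set differed with the GC content of transcripts. Each member is therefore also given with offsets. This means its value in a fit that removes smooth trends with GC content and transcript length (11017 genes with an annotation). Whether fold changes follow length over all genes is not given. With offsets, 12 of the 58 members were higher and 9 lower, that is 20.7% and 15.5%, where 14.6% of all genes in that fit were higher and 18.9% lower. Of the 27 members called without offsets, 7 higher and 7 lower ones were called again in the same direction, 13 were not called and 0 were called in the opposite direction. A further 5 members were called higher and 2 lower with offsets alone. The call held in every alternative run for 11 members: SEC23B, COPG1, TRAPPC8, TRAPPC11, GOLGA2, GOLGA3, GOLGA4, ARFGEF1, ARFGEF2, SEC11C and SEC14L1. The share of all called genes that held in this way is not given.

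**Figure D1:**
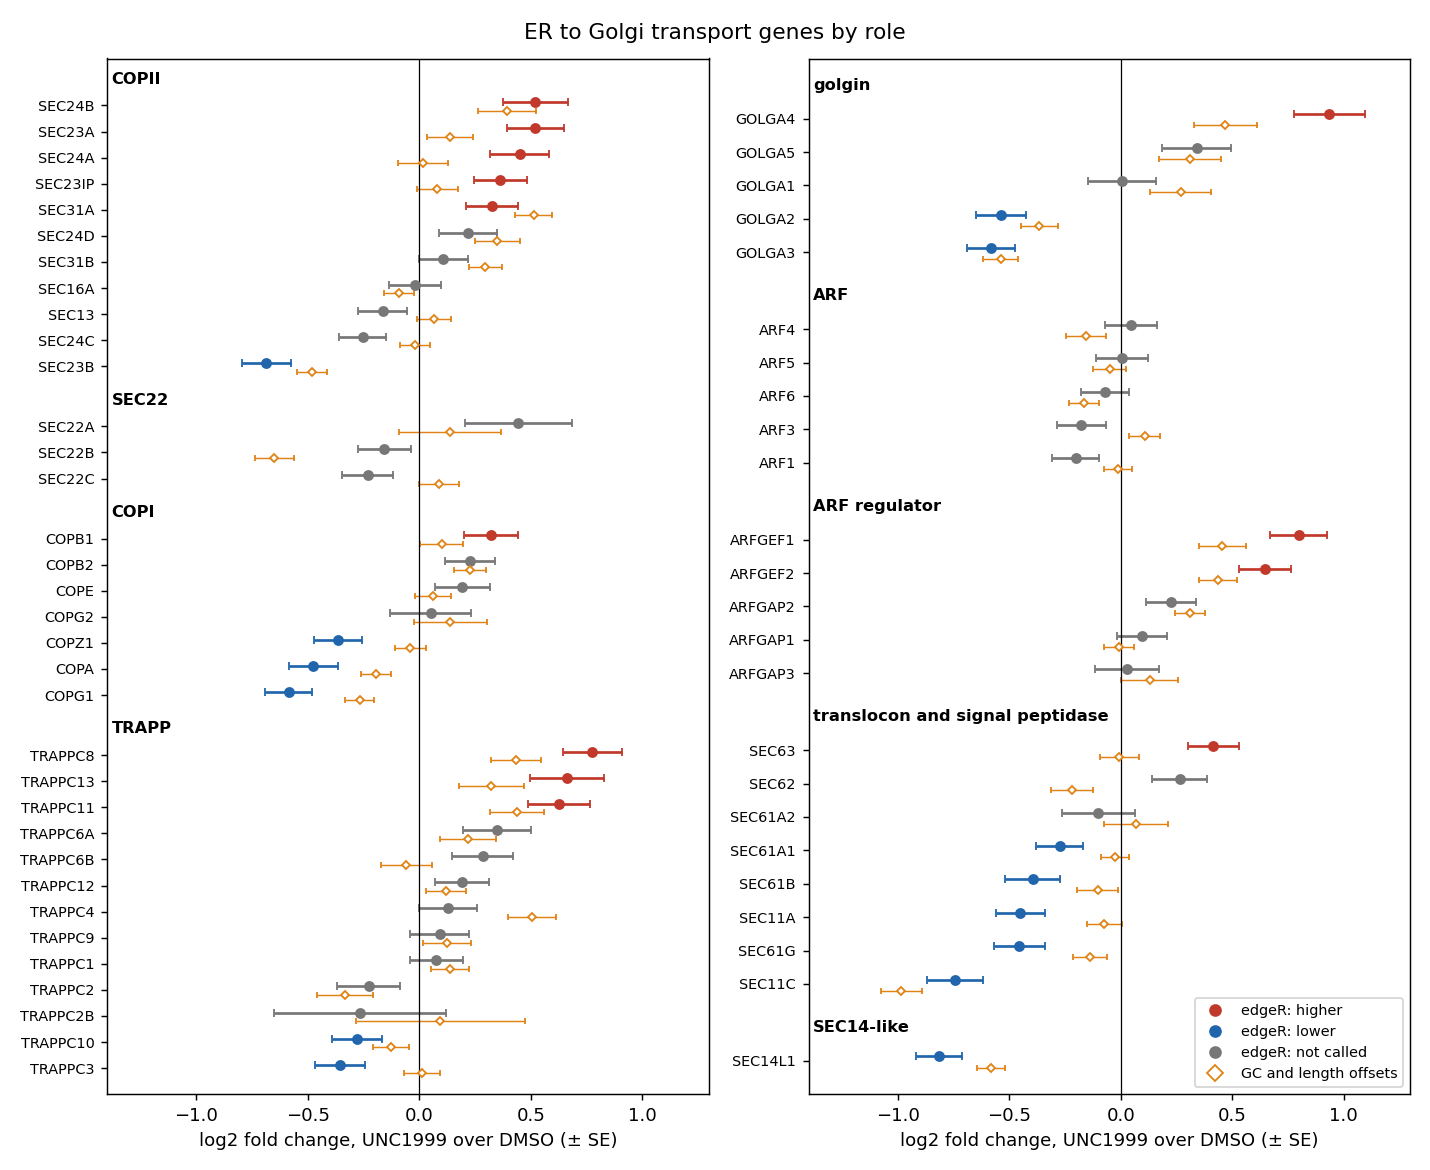
Log2 fold change of UNC1999 over DMSO (x axis, ± SE) for each of the 58 members, grouped by role and sorted within a role. Filled circles are the edgeR values (red higher, blue lower, grey not called) and open orange diamonds are the values with GC and length offsets; 40 of 58 diamonds, and 25 of the 27 for called members, lie nearer to 0 than their circles; SEC11C and SEC31A are the called members whose diamonds lie farther from it.

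Among COPII genes, which build the coat of vesicles leaving the ER, 5 of 11 rose, 1 fell and 5 did not pass the test (4 higher and 1 lower with offsets). That is 45.5% higher and 9.09% lower, beside 15.7% and 19.5% of all tested genes, and with offsets 36.4% and 9.09%, beside 14.6% and 18.9%. The fall was in SEC23B, one of the paralogues that encode the inner-coat subunit which activates the GTPase SAR1. SEC23B had 121.1, 140.1 and 116.1 CPM in the UNC1999 libraries, against 209.2 and 195.6 CPM in the DMSO libraries. All 3 UNC1999 libraries lay far below both DMSO libraries, with a log2 fold change of -0.69 ± 0.11 (SE; adjusted p = 7.907e-06 in edgeR) and -0.48 with offsets. In GENCODE 29 (GRCh38, where the authors used hg19) SEC23B lies on chromosome 20 from 18507482 to 18561415.

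The other inner-coat paralogue, SEC23A, moved the opposite way. It had 36.0, 41.6 and 35.6 CPM in UNC1999, against 26.8 and 25.9 CPM in DMSO, with no overlap between the groups. Its log2 fold change was 0.52 ± 0.13 (SE; adjusted p = 0.001532 in edgeR) and 0.14 with offsets, where it was not called. Of the SEC24 genes, which encode the cargo-binding subunits, SEC24B (0.52; 0.39 with offsets) and SEC24A (0.45; 0.02 with offsets, not called) rose, while SEC24D had 0.22 and SEC24C -0.25, neither called. SEC24D passed the test with offsets (0.35, adjusted p = 0.006855 in edgeR).

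The outer-coat gene SEC31A rose, with 60.3, 66.5 and 59.4 CPM in UNC1999, against 49.4 and 49.6 CPM in DMSO. All UNC1999 libraries were above both DMSO libraries, with a log2 fold change of 0.33 ± 0.12 (SE; adjusted p = 0.02492 in edgeR) and 0.51 with offsets (adjusted p = 8.555e-06 in edgeR). Its paralogue SEC31B had 0.11 and was called with offsets alone (0.30, adjusted p = 0.00175 in edgeR). SEC23IP, which encodes a SEC23-binding protein of ER exit sites, rose by 0.36 (0.08 with offsets, not called). SEC13, the partner of SEC31 in the outer coat, and SEC16A, the scaffold of ER exit sites, had -0.16 and -0.02. SEC24C had the highest level per kilobase of transcript of this role in DMSO (60.6 CPM per kilobase in UNC1999 and 72.2 in DMSO), while SEC13 was the highest in UNC1999 (62.8 CPM per kilobase in UNC1999 and 70.2 in DMSO).

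Several COPII calls were lost on leaving out 1 library, with log2 fold changes close to those with all libraries. SEC24B had 0.522 without DMSO replicate 1 and 0.514 without DMSO replicate 2 (adjusted p = 0.05549 and 0.05708 in edgeR). SEC31A had 0.321 and 0.327 in the same fits (adjusted p = 0.1682 and 0.1481 in edgeR). SEC24A had 0.41 without DMSO replicate 1 (adjusted p = 0.103 in edgeR). SEC23IP had 0.34, 0.38 and 0.33 on leaving out DMSO replicate 1, DMSO replicate 2 and UNC1999 replicate 1 (adjusted p = 0.1431, 0.0953 and 0.07116 in edgeR). SEC24C was called lower (-0.21, adjusted p = 0.01765 in edgeR) without UNC1999 replicate 2.

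The 3 SEC22 genes, which encode longin-domain proteins of the ER and Golgi, were not called in edgeR without offsets or a replicate block, in the DESeq2 Wald test or in limma-voom, and 0 of them had an unadjusted p below 0.05 in that edgeR fit. SEC22B, the SNARE of ER-derived vesicles, had 57.4, 69.9 and 53.6 CPM in UNC1999, against 66.8 and 67.7 CPM in DMSO. The groups overlapped through UNC1999 replicate 2, and the log2 fold change was -0.16 ± 0.12 (SE). With offsets the value was -0.65 (adjusted p = 3.558e-07 in edgeR), and without UNC1999 replicate 2 it was -0.27 (adjusted p = 0.01698 in edgeR). SEC22B has near-identical copies elsewhere on chromosome 1, so its counts are uncertain. SEC22C had -0.23 (called at -0.24 without UNC1999 replicate 2, adjusted p = 0.04003 in edgeR). SEC22A, at 4.79 to 7.87 CPM in UNC1999 and 3.73 to 5.12 CPM in DMSO, had 0.44 ± 0.24 (SE), with overlapping groups.

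COPI coat genes were called in both directions: COPA, COPG1 and COPZ1 fell, COPB1 rose, and COPB2, COPE and COPG2 did not pass the test. That is 14.3% of 7 higher and 42.9% lower, beside 15.7% and 19.5% of all tested genes. With offsets the shares were 14.3% and 28.6%, beside 14.6% and 18.9%. COPG1, the gamma subunit that binds ARF1 and cargo, had 186.0, 187.9 and 179.7 CPM in UNC1999, against 277.0 and 277.1 CPM in DMSO. The groups were far apart and tight, with a log2 fold change of -0.59 ± 0.11 (SE; adjusted p = 3.848e-05 in edgeR) and -0.27 with offsets. COPG1 had the highest level per kilobase of the COPI genes in DMSO (59.96 CPM per kilobase in UNC1999 and 90.01 in DMSO), while COPE was the highest in UNC1999 (67.1 CPM per kilobase in UNC1999 and 58.6 in DMSO). Its paralogue COPG2 was low, at 8.15 to 12.7 CPM in UNC1999 and 9.83 to 9.89 CPM in DMSO, with a log2 fold change of 0.05.

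COPA, the alpha subunit of the outer coat layer, had 182.7, 215.6 and 186.9 CPM in UNC1999, against 277.4 and 264.6 CPM in DMSO. It fell by 0.47 ± 0.11 on the log2 scale (SE; adjusted p = 0.0007444 in edgeR) and by 0.19 with offsets, where it was still called. COPZ1, the zeta subunit, fell by 0.36 (0.04 with offsets, not called). COPB1, the beta subunit, had 54.2, 48.6 and 50.6 CPM in UNC1999, against 37.2 and 44.5 CPM in DMSO, and rose by 0.32 (0.10 with offsets, not called). COPB2, the beta-prime subunit, had 0.23 with and without offsets, a value called with offsets alone (adjusted p = 0.0134 in edgeR).

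The COPZ1 call was lost on leaving out DMSO replicate 1 or 2 or UNC1999 replicate 3 (log2 fold changes of -0.33, -0.40 and -0.31; adjusted p = 0.1282, 0.05324 and 0.065 in edgeR), and the COPB1 call on leaving out DMSO replicate 1 or UNC1999 replicate 1 or 3 (0.20, 0.29 and 0.33; adjusted p = 0.4299, 0.1294 and 0.06333 in edgeR). COPE, the epsilon subunit, had 0.19, and was called at 0.33 without UNC1999 replicate 2 (adjusted p = 0.003014 in edgeR).

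TRAPP genes encode subunits of multi-part tethers that also act as exchange factors for RAB GTPases. Of 13 tested, 3 rose, 2 fell and 8 did not pass the test (3 higher and 1 lower with offsets). These shares, 23.1% higher and 15.4% lower, are near the 15.7% and 19.5% of all tested genes. With offsets the shares were 23.1% and 7.69%, beside 14.6% and 18.9%. The rises were in TRAPPC8, TRAPPC11 and TRAPPC13, whose proteins belong to the TRAPPIII form of the complex. TRAPPC8 had 37.1, 32.2 and 34.8 CPM in UNC1999, against 19.9 and 20.6 CPM in DMSO. Its lowest UNC1999 library was far above both DMSO libraries, with a log2 fold change of 0.78 ± 0.13 (SE; adjusted p = 1.948e-05 in edgeR) and 0.44 with offsets. TRAPPC11 had 28.7, 26.4 and 24.4 CPM in UNC1999, against 17.7 and 16.7 CPM in DMSO, and rose by 0.63 (0.44 with offsets).

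TRAPPC13 had 16.9, 17.5 and 15.1 CPM in UNC1999, against 8.59 and 12.2 CPM in DMSO. It rose by 0.66 (0.32 with offsets, adjusted p = 0.08867 in edgeR), and its call was lost without DMSO replicate 1 (0.43, adjusted p = 0.132 in edgeR). TRAPPC12, the remaining TRAPPIII subunit, had 0.19 (0.12 with offsets), and 0.27 without UNC1999 replicate 2 (adjusted p = 0.02635 in edgeR). Of the TRAPPII subunits, TRAPPC9 had 0.09 and TRAPPC10 -0.28 (adjusted p = 0.04808 in edgeR), a call that was lost in 12 alternatives, including offsets (-0.13), and on leaving out DMSO replicate 1 or 2 or UNC1999 replicate 1 or 3 (-0.22, -0.34, -0.22 and -0.31; adjusted p = 0.3463, 0.1031, 0.2293 and 0.07745 in edgeR).

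The core subunit gene TRAPPC3, the TRAPP member with the highest level per kilobase in DMSO (53.2 CPM per kilobase in UNC1999 and 68.1 in DMSO, where TRAPPC1, another core subunit, had 69.97 in UNC1999 and 66.3 in DMSO), fell by 0.35 ± 0.11 on the log2 scale (SE) and had 0.01 with offsets. Its call was also lost on leaving out DMSO replicate 1 or 2 or UNC1999 replicate 1 (-0.38, -0.34 and -0.27; adjusted p = 0.08393, 0.1183 and 0.1356 in edgeR). TRAPPC4, another core subunit, had 0.13, and was called with offsets (0.51, adjusted p = 0.0003063 in edgeR). TRAPPC6A (0.35) and TRAPPC6B (0.28), alternative forms of one core subunit, were not called, and TRAPPC6A was called without UNC1999 replicate 2 (0.49, adjusted p = 0.004106 in edgeR). TRAPPC2 had -0.23, and -0.33 with offsets (adjusted p = 0.0384 in edgeR). TRAPPC2 and its retrogene TRAPPC2B are near-identical, so the counts of both are uncertain. TRAPPC2B was also the member nearest the count minimum, with 15, 18 and 9 counts in UNC1999 and 20 and 11 in DMSO. Just outside the minimum stood SEC14L5, with 6, 11 and 3 counts in UNC1999 and 4 and 1 in DMSO, and SEC14L2, with 6, 8 and 9 counts in UNC1999 and 7 and 7 in DMSO. TRAPPC5, a core TRAPP subunit gene, had 4, 7 and 2 counts in UNC1999 and 7 and 4 in DMSO and was not tested, nor were COPZ2 and SEC16B, each with at most 4 counts in any library. Of the 9 other rows below the minimum, SEC14L1P1 and SEC1P reached no more than 8 counts and the remaining 7 no more than 1.

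Golgins, long coiled-coil proteins that stand on Golgi membranes and capture vesicles, held the highest fold change of all members. Of 5 tested, 1 rose and 2 fell, both without and with offsets. These are 20% higher and 40% lower, beside 15.7% and 19.5% of all tested genes (14.6% and 18.9% with offsets). GOLGA4 (golgin-245), a golgin of the trans-Golgi network, had 19.5, 22.0 and 19.96 CPM in UNC1999, against 8.84 and 12.5 CPM in DMSO. The UNC1999 libraries lay close together and above both DMSO libraries, with a log2 fold change of 0.94 ± 0.16 (SE; adjusted p = 2.004e-05 in edgeR) and 0.47 with offsets. GENCODE 29 places GOLGA4 on chromosome 3 from 37243177 to 37366751 (GRCh38).

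GOLGA3 (golgin-160) and GOLGA2 (GM130, a tether of the cis-Golgi) fell. GOLGA3 had 72.9, 75.3 and 80.1 CPM in UNC1999, against 112.4 and 115.2 CPM in DMSO, a log2 fold change of -0.58 ± 0.11 (SE; adjusted p = 6.46e-05 in edgeR) that was -0.54 with offsets. GOLGA2 had 49.5, 48.2 and 52.9 CPM in UNC1999, against 70.2 and 75.4 CPM in DMSO, a log2 fold change of -0.54 ± 0.11 (SE; adjusted p = 0.0002763 in edgeR) and -0.36 with offsets. In both genes every UNC1999 library was below both DMSO libraries. GOLGA2 has many partial copies in the genome, so its counts are uncertain. GOLGA2 also had the highest level per kilobase among the golgins, 11.8 CPM per kilobase in UNC1999 and 17.1 CPM per kilobase in DMSO. GOLGA5 (golgin-84) had 0.34 and GOLGA1 (golgin-97) 0.01, neither called.

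None of the 5 tested ARF genes was called in edgeR, the DESeq2 Wald test or limma-voom with all libraries, and 0 had an unadjusted p below 0.05 in edgeR. Their log2 fold changes ran from -0.20 (ARF1) to 0.05 (ARF4), and none was called with offsets. ARF1, the GTPase that recruits COPI and the member with the highest level per kilobase (261.1 CPM per kilobase in UNC1999 and 300.3 CPM per kilobase in DMSO), had 547.6, 501.2 and 522.6 CPM in UNC1999, against 608.1 and 596.9 CPM in DMSO. All UNC1999 libraries were below both DMSO libraries, but the difference missed the threshold (adjusted p = 0.1344 in edgeR, and 0.04799 with a value of -0.16 without UNC1999 replicate 2). ARF3 (-0.18), ARF5 (0.00) and ARF6 (-0.07) had values in the same range.

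The exchange factors that load ARFs with GTP at the trans-Golgi network rose. Among the 5 tested regulators of ARFs, 2 were called higher (40%), beside 15.7% of all tested genes. With offsets 3 were (60%), beside 14.6%. ARFGEF1 (BIG1) had 42.6, 45.1 and 50.5 CPM in UNC1999, against 26.3 and 26.7 CPM in DMSO, and ARFGEF2 (BIG2) had 64.6, 69.3 and 66.1 CPM in UNC1999, against 40.8 and 44.2 CPM in DMSO. Neither gene's groups overlapped. The log2 fold changes were 0.80 ± 0.13 for ARFGEF1 (SE; adjusted p = 7.148e-06 in edgeR) and 0.65 ± 0.12 for ARFGEF2 (SE; adjusted p = 4.165e-05 in edgeR), and the values with offsets were 0.46 and 0.44. The GTPase-activating protein genes were not called without offsets: ARFGAP1 had 0.10, ARFGAP2 0.23 and ARFGAP3 0.03. ARFGAP2, the highest of the 5 regulators per kilobase (63.1 CPM per kilobase in UNC1999 and 53.96 in DMSO), was called with offsets (0.31, adjusted p = 0.0004759 in edgeR) and without UNC1999 replicate 2 (0.31, adjusted p = 0.0009777 in edgeR), as was ARFGAP1 without that library (0.20, adjusted p = 0.03011 in edgeR).

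**Figure D2:**
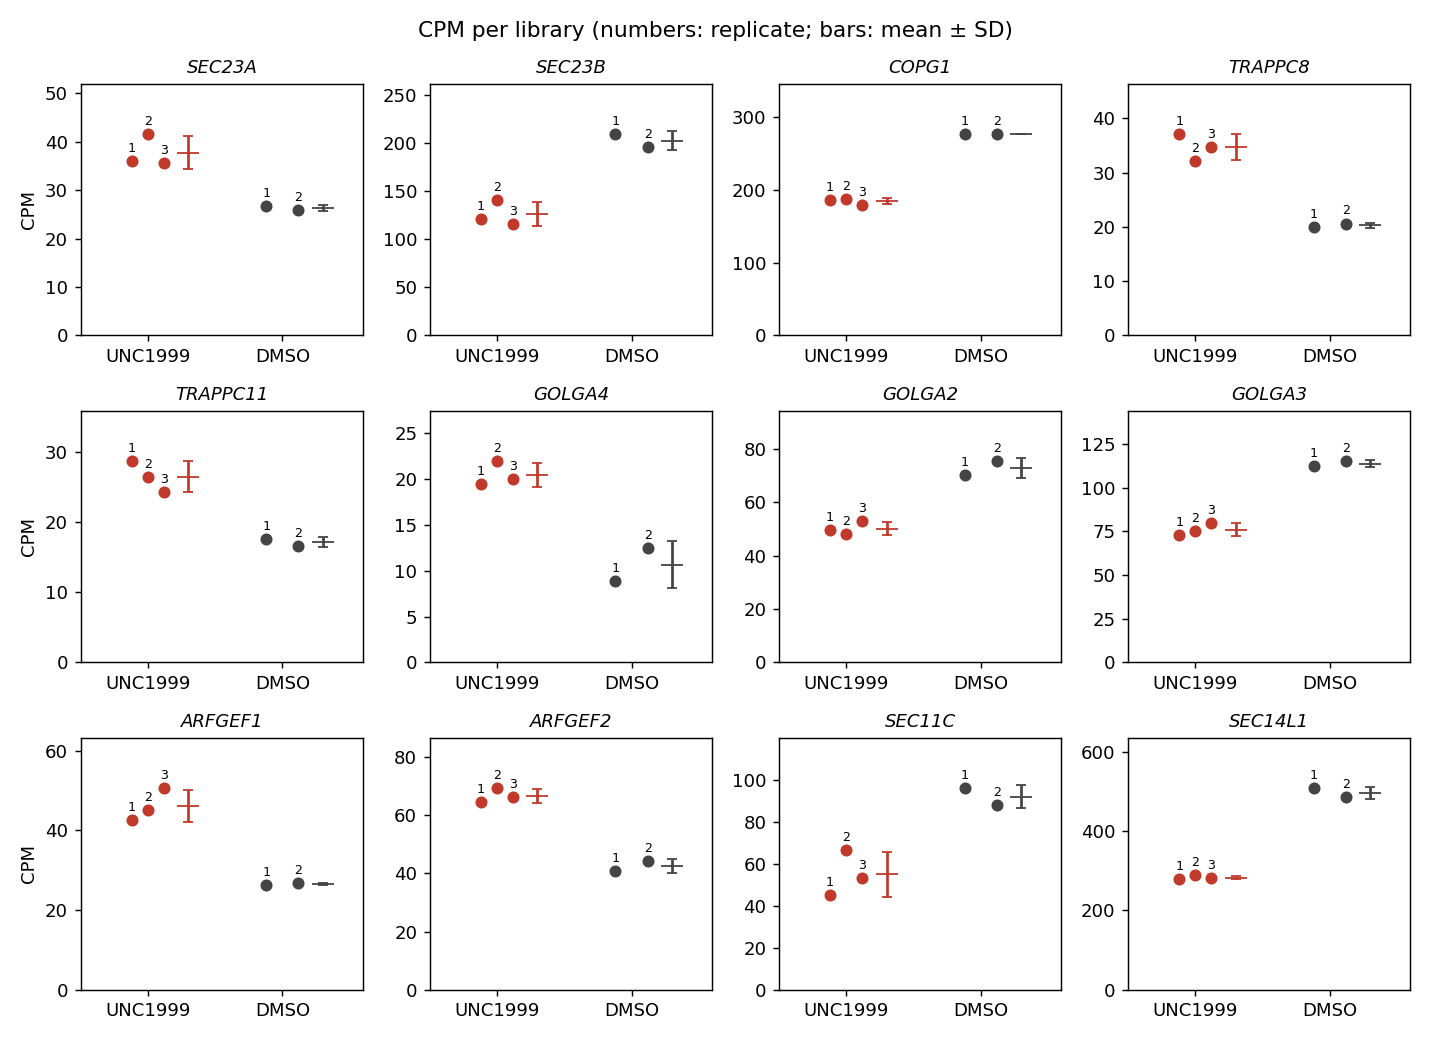
CPM (y axis, from 0) in each of the 3 UNC1999 libraries (red, left) and 2 DMSO libraries (dark grey, right) for SEC23A and the 11 members whose call held in every alternative, with replicate numbers and the mean ± SD. SEC23A, TRAPPC8, TRAPPC11, GOLGA4, ARFGEF1 and ARFGEF2 were higher in UNC1999 and the others lower, with no overlap between groups in any panel.

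Among genes for entry into the ER, 5 of 8 fell, 1 rose and 2 did not pass the test; with offsets only SEC11C was called. That is 62.5% lower and 12.5% higher, beside 19.5% and 15.7% of all tested genes, and with offsets 12.5% lower, beside 18.9%. The fall that held was in SEC11C, one of the paralogues for the catalytic subunit of signal peptidase. SEC11C had 45.0, 66.4 and 53.3 CPM in UNC1999, against 95.9 and 88.1 CPM in DMSO. UNC1999 replicate 2 was the nearest to DMSO but still below both DMSO libraries. The log2 fold change was -0.74 ± 0.12 (SE; adjusted p = 1.436e-05 in edgeR) and -0.98 with offsets (adjusted p = 1.431e-10 in edgeR). Its paralogue SEC11A had 73.7, 90.3 and 85.2 CPM in UNC1999, against 114.4 and 112.6 CPM in DMSO, and had a log2 fold change of -0.45, a fall that was not called with offsets (-0.07).

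The 3 genes of the SEC61 channel that fell were SEC61G (-0.45), SEC61B (-0.39) and SEC61A1 (-0.27), which had -0.14, -0.10 and -0.02 with offsets, none of them called. SEC61A1, the pore subunit and the highest of the role per kilobase (127.7 CPM per kilobase in UNC1999 and 154.5 CPM per kilobase in DMSO), had 460.2, 461.1 and 471.2 CPM in UNC1999, against 577.1 and 545.8 CPM in DMSO. Its call was lost on leaving out DMSO replicate 1 or 2 or UNC1999 replicate 1 or 3 (-0.24, -0.32, -0.26 and -0.28; adjusted p = 0.2874, 0.1217, 0.1626 and 0.09745 in edgeR), and that of SEC61B likewise (-0.38, -0.42, -0.33 and -0.33; adjusted p = 0.1066, 0.06852, 0.07718 and 0.06397 in edgeR). SEC63, a partner of the channel in post-translational import, had 66.0, 64.0 and 68.9 CPM in UNC1999, against 50.03 and 49.46 CPM in DMSO. It rose by 0.41 ± 0.11 on the log2 scale (SE) but had -0.01 with offsets, and its call was lost without DMSO replicate 1 or DMSO replicate 2, at nearly the same log2 fold changes (0.42 and 0.40; adjusted p = 0.06315 and 0.0677 in edgeR). SEC62 (0.26) and SEC61A2 (-0.10) were not called.

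SEC14L1 had the lowest fold change of all members. It had 278.9, 288.0 and 281.0 CPM in UNC1999, against 507.8 and 485.9 CPM in DMSO, with tight groups far apart. The log2 fold change was -0.81 ± 0.10 (SE; adjusted p = 2.406e-07 in edgeR) and -0.58 with offsets. The gene lies on chromosome 17 from 77088749 to 77217101 in GENCODE 29 (GRCh38).

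Paralogues of a subunit offer a within-library comparison, since the ratio of their counts does not depend on library size. Of 15 listed pairs, 13 had both genes tested. With 3 against 2 libraries, a two-sided exact permutation test cannot go below 0.1, so no pair could pass the threshold. The difference was largest for SEC23A over SEC23B, whose log2 ratio was -1.73 ± 0.03 in UNC1999 and -2.93 ± 0.03 in DMSO (SD, n = 3 and n = 2), a difference of 1.20 (exact permutation p = 0.1, 0.433 adjusted over 13 pairs) that was 0.62 with offsets. The log2 ratio of COPG1 over COPG2 was 4.17 in UNC1999 and 4.78 in DMSO, that of SEC24C over SEC24D was 3.06 in UNC1999 and 3.53 in DMSO, and that of SEC31A over SEC31B was -0.788 in UNC1999 and -1.004 in DMSO. The pairs ARF1 over ARF3, ARF4 over ARF5 and SEC24A over SEC24B differed by -0.03, 0.05 and -0.07 between groups, within the spread of the libraries, although SEC24A over SEC24B differed by -0.38 with offsets. The ratio of SEC22A over SEC22C differed by 0.64 (exact permutation p = 0.2), and by 0.05 with offsets. The ratio of SEC11A over SEC11C differed by 0.30, and by 0.91 with offsets.

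**Figure D3:**
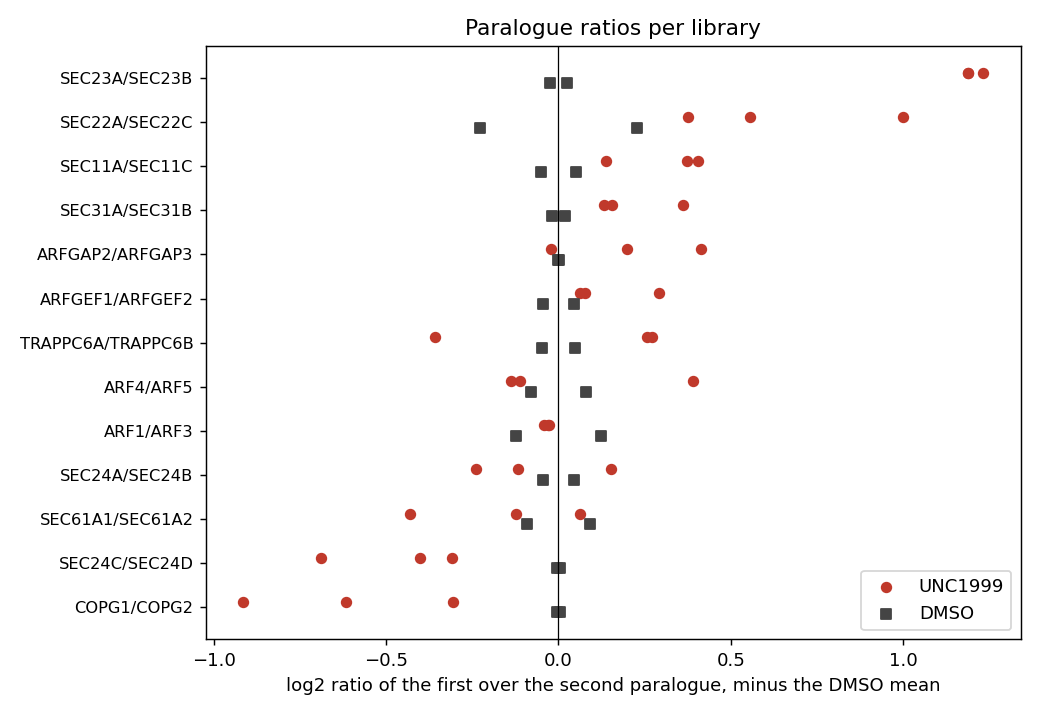
Log2 ratio of the first over the second paralogue in each library, minus the mean of the DMSO libraries (x axis), for 13 pairs; red circles are UNC1999 libraries and dark squares DMSO libraries. The 3 UNC1999 values of SEC23A/SEC23B lie near 1.20 and close together, while those of the ARF pairs and SEC24A/SEC24B lie around 0.

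The direction of the calls differed with base composition, but not as 1 trend from low to high GC content. The 13 members that rose had transcripts with a median GC content of 40.8% (36.4 to 46.3%) and a median length of 6226 bases, and the 14 that fell had a median of 49.5% (40.3 to 54.8%) and 3281 bases. Of 15 members below 42% GC, 9 were higher (60%) and 1, SEC11C, was lower; over all annotated genes in that range 44% were higher and 5.85% lower. Of 17 members with 42 to 48% GC, 4 were higher and 4 lower (23.5% each), where 15% of all annotated genes in the range were higher and 28% lower. Of 12 members with 48 to 54% GC, 0 were higher and 7 lower (58.3%), where 1.78% of all annotated genes in the range were higher and 48% lower. Of 14 members with 54% GC or more, 0 were higher and 2 lower (14.3%), with a median log2 fold change of 0.08, where all annotated genes in the range had a median of 0.03, 6.79% of them higher and 9.42% lower.

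**Figure D4:**
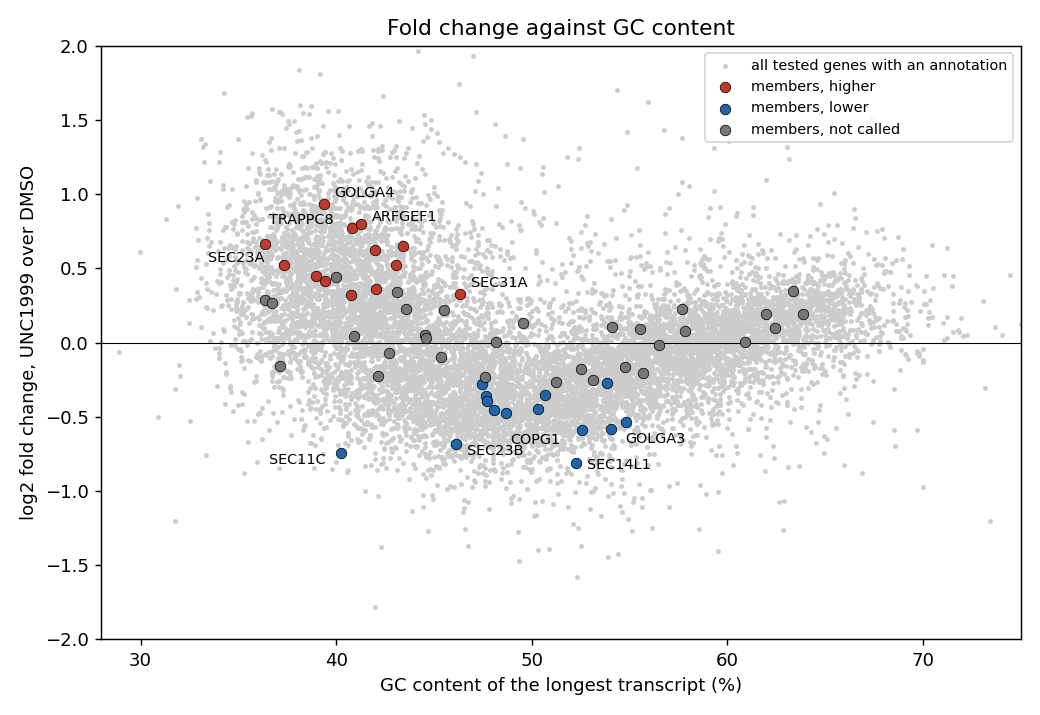
Log2 fold change of UNC1999 over DMSO (y axis) against the GC content of the longest transcript (x axis, %), with 11017 annotated genes in light grey and the 58 members coloured by call; 10 genes lie beyond the y axis and 5 beyond the x axis. Members follow the curve of the grey points, high below 42%, low between 48 and 54% and mostly near 0 above 54%, with SEC11C below it at 40.3%.

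Promoter sequence was examined because ER and Golgi genes are known to be induced through short motifs: the ER stress elements (ERSE, bound by ATF6, and ERSE-II), the core of the unfolded protein response element (UPRE, bound by XBP1 and ATF6) and the Golgi apparatus stress element (GASE, bound by TFE3). RefSeq windows of 250 bases before to 50 after the start (GRCh38.p14) were found for 51 of the 58 members; SEC24D, ARFGAP1, GOLGA4, ARF4, TRAPPC8, TRAPPC9 and ARFGEF1 had no entry. Both strands were searched. The UPRE core TGACGTGG stood in the windows of 10 of 51 members (19.6%), in 0.729% of all 35116 windows and in 1.19% of 8479 tested genes. The GASE letters ACGTGGC, which can overlap the UPRE core, stood in 15 of 51 members (29.4%), in 3.22% of all windows and in 5.84% of tested genes. In 6 members, ARF1, GOLGA1, GOLGA5, SEC16A, SEC23A and SEC24A, the matches overlapped. ERSE (CCAAT and CCACG with 9 bases of any kind between them) and ERSE-II (ATTGG and CCACG with 1 base between them) matched 0 members, and 0.0769% and 0.0541% of all windows. The cAMP response element TGACGTCA stood in 2 of 51 members (3.92%) and 3.93% of tested genes.

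Stretches upstream of the start that hold these letters are given 5′ to 3′ on the gene's strand, with the motif or its reverse complement in capitals. The first 7 hold the UPRE core.
SEC24A (chr5:134648586-134648633, + strand): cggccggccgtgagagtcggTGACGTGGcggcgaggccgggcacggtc
GOLGA1 (chr9:124941239-124941286, - strand): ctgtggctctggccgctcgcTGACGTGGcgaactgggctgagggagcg
ARF1 (chr1:228082672-228082707, + strand): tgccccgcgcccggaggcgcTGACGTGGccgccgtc
GOLGA5 (chr14:92794106-92794153, + strand): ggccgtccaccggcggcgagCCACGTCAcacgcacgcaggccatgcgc
COPB1 (chr11:14499832-14499879, - strand): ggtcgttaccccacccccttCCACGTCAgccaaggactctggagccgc
COPB2 (chr3:139389816-139389863, - strand): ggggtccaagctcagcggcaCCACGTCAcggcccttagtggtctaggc
SEC62 (chr3:169966770-169966806, + strand): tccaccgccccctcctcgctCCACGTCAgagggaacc
The next 4 are called members with the GASE letters.
COPG1 (chr3:129249578-129249605, + strand): cctgcgcagagcgctgggcgACGTGGCc
SEC11C (chr18:59139823-59139869, + strand): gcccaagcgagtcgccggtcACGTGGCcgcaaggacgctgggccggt
SEC31A (chr4:82900593-82900639, - strand): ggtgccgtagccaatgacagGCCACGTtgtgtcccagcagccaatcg
SEC63 (chr6:107958255-107958301, - strand): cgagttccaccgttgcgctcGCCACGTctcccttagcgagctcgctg

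Members with either motif were called in both directions under UNC1999. Of the 18, 5 were higher (COPB1, SEC23A, SEC24A, SEC31A and SEC63), 4 lower (COPA, COPG1, GOLGA3 and SEC11C) and 9 not called. Over all 51 members with a window, 10 were higher, 14 lower and 27 not called. Of all tested genes, 15.7% were higher and 19.5% lower. Calls of other genes with these motifs are not given, so the counts do not set these members apart. Whether the factors that bind the motifs had a part was not tested. A match is a run of letters and does not show that a factor binds there.

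Of 90 further genes of the pathway that the symbol rule does not take, 86 were tested; 14 rose, 19 fell and 53 did not pass the test, with a median log2 fold change of 0.01 (8 higher and 17 lower of 84 with offsets). These shares, 16.3% higher and 22.1% lower, are near the 15.7% and 19.5% of all tested genes; with offsets they were 9.52% and 20.2%, beside 14.6% and 18.9%. ARCN1, the delta subunit of the COPI coat, fell by 0.29 (0.32 with offsets), a call lost on leaving out DMSO replicate 1 or 2 or UNC1999 replicate 1 or 3 (-0.30, -0.28, -0.23 and -0.31; adjusted p = 0.1768, 0.1929, 0.226 and 0.07117 in edgeR). Of the COPII GTPase paralogues, SAR1B had 0.31 (-0.14 with offsets), called with all libraries but not without DMSO replicate 1 or UNC1999 replicate 3 (0.15 and 0.31; adjusted p = 0.5669 and 0.07926 in edgeR), and SAR1A had -0.15 (-0.33 with offsets, adjusted p = 0.001263 in edgeR). PREB, the exchange factor for SAR1, had 183.8, 160.3 and 182.7 CPM in UNC1999, against 176.1 and 173.8 CPM in DMSO, a log2 fold change of 0.01.

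The smallest p values among partners that rose belonged to GOLGB1 (giantin, a Golgi tether; 1.02, with offsets 0.64), GOLIM4 (a protein cycling between Golgi and endosomes; 0.72, with offsets 0.82) and GCC2 (a trans-Golgi golgin; 0.92, with offsets 0.44). Those among partners that fell belonged to KDELR2 (a receptor that returns escaped ER proteins; -0.73, with offsets -0.65), GCC1 (a trans-Golgi golgin; -0.61, with offsets -0.35) and RAB2A (a GTPase of ER to Golgi traffic; -0.62, with offsets -0.96). KDELR2 had 46.4, 51.9 and 44.4 CPM in UNC1999, against 78.9 and 79.1 CPM in DMSO. GOLGB1 had 27.96, 26.0 and 31.9 CPM in UNC1999, against 11.2 and 16.9 CPM in DMSO. In each of these 6 genes all UNC1999 libraries lay on one side of both DMSO libraries. They were picked by their p values, so this separation adds no support to the calls. NSF, the ATPase that recycles SNAREs, was listed at 0 in all 5 libraries. The annotation behind the counts is not stated, so whether NSF RNA was absent is uncertain.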

How the data were processed

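The deposited table holds raw read counts for 57221 rows named by gene symbol, with 1 column per library. Per the submitters' processing notes, the tools were fastp, STAR 2.7.9 and HTSeq 0.13.5, with the build hg19 and with edgeR 3.34.0. Their settings, the annotation and the use of strand are not stated. The labels' protocols name Trizol for the RNA and an NEBNext Ultra kit for the libraries.

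Rows kept by filterByExpr (13075) entered the quasi-likelihood test of edgeR 4.0.16, run in R 4.3.3 (normalized by TMM, glmQLFit, glmQLFTest, UNC1999 against DMSO, Benjamini-Hochberg adjustment, threshold 0.05). Each SE of a log2 fold change was computed back from that test, as the absolute log2 fold change divided by the square root of its F statistic. CPM values are scaled by TMM factors. Paralogue ratios use log2 CPM with a prior count of 2. GC content and length are those of the longest transcript, coding transcripts first, in GENCODE 29 (GRCh38), matched by symbol for 11017 tested rows (84.3%) and for all 58 members. For the offsets, the deviation of a library from the average library was fitted by splines on GC content (6 degrees of freedom) and on length (4). A count of 0 allows up to 3 counts, 0.328 to 0.373 CPM, which covers counting error only. Both fits were run on simulated counts. The simulation for the offsets held a GC trend but no length trend and no true change. It therefore cannot show whether the offsets keep true changes.

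Named genes were, per role, the called members with the largest changes (up to 4 per direction), the highest per kilobase and the paralogue pairs, and among partners the 3 smallest p per direction with ARCN1, SAR1A, SAR1B and PREB; the genes in the closing section, and members named for a call in an alternative, were chosen after their values were seen. Members and lists were chosen with earlier results of these data known. Alternatives were DESeq2 1.42.0 size factors, no factors, no filter, a stricter filter (1 CPM in 2 libraries, mean count 50), the DESeq2 Wald test, limma-voom (limma 3.58.1), a replicate block, the offsets with and without the block, each library left out, a threshold of 0.01 and, chosen after seeing the data, annotated genes alone.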

Additional observations from a re-analysis of the deposited data

How the results depend on the processing

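Of the 27 called members, 27 kept their call in limma-voom, 25 in the DESeq2 Wald test, 25 with DESeq2 size factors in edgeR and 14 with GC and length offsets. The lower members numbered 9 without normalization factors, 9 with offsets and 8 with offsets and the replicate block, against 14. Over all genes in these fits, 1738, 2079 and 1734 were lower, against 2546. Those higher numbered 2951, 1608 and 1246, against 2057. The fits with offsets held 11017 genes in place of 13075. Leaving out 1 library gave 6 to 18 higher and 9 to 18 lower members. Partners called higher numbered 22 without normalization factors, 8 with offsets and 5 with offsets and the replicate block, against 14; leaving out 1 library gave 7 to 21 higher and 8 to 26 lower. The members' median log2 fold change was 0.155 without normalization factors, 0.0913 with the stricter filter and 0.0338 to 0.107 with 1 library left out; without factors the median of all genes was 0.09, against -0.01. With offsets SEC63 had -0.00588 (edgeR adjusted p = 0.967) and TRAPPC3 0.0119 (edgeR adjusted p = 0.929), on the other side of 0; with offsets and the replicate block SEC63 had -0.0528 and SEC24A -0.067. The replicate block called 13 members higher and 11 lower, without COPB1, COPZ1, TRAPPC10 and SEC61A1 and with SEC22A (0.584, adjusted p = 0.0479 in edgeR). UNC1999 replicate 3 has no DMSO library of its number. In the fits with the block it therefore adds nothing to the difference between groups, which rests on replicates 1 and 2. With offsets and the block COPA was not called (adjusted p = 0.0573 in edgeR). The numbers are not known to pair the libraries. Deviations of same-numbered libraries from their group means had correlations of only 0.0658 and 0.0381. The DMSO libraries deviate as mirror images (correlation -1), so UNC1999 replicates 1 and 2 had -0.0658 and -0.0381 with the other DMSO library. The causes of these shifts were not tested. The offsets depend on the transcript chosen for each gene, and with 2 DMSO libraries changes smaller than those called can be missed.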

Other observations

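Golgins beyond the 5 members were chosen after their values were seen, from no fixed list, and nothing was tested over them as a group. GOLGB1, GCC2 and TRIP11 (a golgin of the cis-Golgi; 0.65, with offsets 0.08, not called) rose, as did GOLGA4, and GCC1 fell, as did GOLGA2 and GOLGA3. GOLGA1 (0.01) and GOLGA5 (0.34), which also encode coiled-coil golgins, were not called. Nor was CUX1 (-0.12), whose count per gene does not separate a golgin form from its other products. TRIP11 was not called without DMSO replicate 2 (0.54, edgeR adjusted p = 0.06093). The stacking-factor gene GORASP2, whose protein binds golgins of the medial Golgi, fell to 96.9, 116.9 and 101.3 CPM in UNC1999, against 166.3 and 146.8 CPM in DMSO (log2 fold change -0.58, with offsets -0.20). The tether gene USO1 (p115), whose protein binds GOLGA2, rose by 0.53 (0.19 with offsets, not called, and 0.42 with an edgeR adjusted p = 0.07396 without DMSO replicate 1).

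The conserved oligomeric Golgi (COG) complex, a tether for vesicles moving within the Golgi, also had members on both sides. It was chosen after its values were seen, and nothing was tested over it as a group. Of all tested genes, 15.7% were higher and 19.5% lower (14.6% and 18.9% with offsets), so calls on both sides do not set the complex apart. COG3 had 27.6, 25.5 and 27.5 CPM in UNC1999, against 17.8 and 16.0 CPM in DMSO, and rose by 0.67 (0.48 with offsets). COG6 rose by 0.68 (0.25 with offsets, not called). COG2 had 37.8, 50.9 and 42.4 CPM in UNC1999, against 66.8 and 60.2 CPM in DMSO, and fell by 0.54 (0.38 with offsets). COG1 fell by 0.41 (0.22 with offsets, not called), a call lost without DMSO replicate 1 or DMSO replicate 2 at the same size (-0.41 in both fits, edgeR adjusted p = 0.05518 and 0.0511). COG4, COG5, COG7 and COG8 did not pass the test without offsets.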
